A study of Homo sapiens with 6 samples.

Results

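Synaptic scaffold and vesicle release genes were described through the chromatin immunoprecipitation sequencing (ChIP-seq) peaks that touch them. The 49 genes were picked by their textbook roles out of 20033 protein-coding genes of the GENCODE annotation on hg38. They comprised 22 genes for postsynaptic scaffold proteins, 16 for proteins of the presynaptic active zone and 11 for synaptic vesicle and release proteins. A peak was counted for a gene if it shared at least 1 nt with the gene body, and 97 peaks of the 4 peak lists did so. The roles describe where the proteins work in neurons, and some, such as CASK, act on both sides of the synapse.

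The cells were SH-SY5Y, a line grown from a human neuroblastoma, and they stably expressed 82-kDa ChAT from an introduced gene. This protein is the nuclear form of choline acetyltransferase, the enzyme that makes acetylcholine. SATB1 is a nuclear protein that binds AT-rich DNA at the bases of chromatin loops. Cells were differentiated with retinoic acid for 3 days and then treated for 4 h with vehicle (Ham's F-12 medium) or with 100 nM oligomers of Aβ1–42, the amyloid-β peptide of Alzheimer's disease. There were 3 plates per treatment and 1 library for each protein and treatment, with a separate input library for each treatment. All groups therefore share the cell line, the introduced ChAT and the differentiation, and values for a treatment come from 1 library without replicates. No p-value was computed, and a difference between treatments could not be told apart from a difference between libraries. On chromosomes 1 to 22, X and Y the lists of 82-kDa ChAT held 7460 (vehicle) and 6345 (Aβ1–42) peaks, and those of SATB1 2884 and 5857. The number of reads behind each list is not known from the peaks. Peaks say nothing of whether a gene is expressed, so the neuronal character of the cells could not be checked here.

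Chemical synapses pass signals from a presynaptic terminal to a postsynaptic membrane. Beneath the postsynaptic membrane, scaffold proteins of the DLG, DLGAP, SHANK and HOMER families are layered so that glutamate receptors stay opposite the release sites, while gephyrin does the same for inhibitory receptors. In the terminal, RIM, ELKS, liprin-α, Munc13, Piccolo and Bassoon proteins form the active zone where vesicles dock and are primed. Synapsins tether vesicles, and synaptotagmin, complexins and SNARE proteins carry out their calcium-triggered fusion.

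The sequences that matter most for the comparison of both proteins are those where a peak of 82-kDa ChAT and a peak of SATB1 overlapped inside one of the genes. There were 4 such pairs, and they are shown as the joined interval of both peaks on the plus strand of the hg38 reference, with the bases shared by both peaks in capitals. The score of a peak grows as the p-value of the peak caller falls, and it ranks peaks within 1 list only. The SHANK2 interval (chr11:70877436-70877613, intron 11, vehicle) also held the highest-scoring 82-kDa ChAT peak of all 49 genes after vehicle. The GPHN interval (chr14:66563458-66563593) lay in intron 1 and came from the vehicle lists. After Aβ1–42 the pairs lay in intron 9 of MAGI2 (chr7:78263707-78263784) and intron 1 of SYT1 (chr12:78878019-78878207).
SHANK2 vehicle: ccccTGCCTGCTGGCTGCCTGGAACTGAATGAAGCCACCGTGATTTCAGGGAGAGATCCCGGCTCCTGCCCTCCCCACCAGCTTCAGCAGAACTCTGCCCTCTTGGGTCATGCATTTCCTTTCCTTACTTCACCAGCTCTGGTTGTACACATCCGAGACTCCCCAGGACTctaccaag
GPHN vehicle: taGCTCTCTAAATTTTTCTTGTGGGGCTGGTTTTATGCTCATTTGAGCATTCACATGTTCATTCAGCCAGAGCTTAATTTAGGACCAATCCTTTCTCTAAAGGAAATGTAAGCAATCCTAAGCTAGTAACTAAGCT
MAGI2 Aβ1–42: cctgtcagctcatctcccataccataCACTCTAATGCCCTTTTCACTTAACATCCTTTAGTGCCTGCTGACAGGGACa
SYT1 Aβ1–42: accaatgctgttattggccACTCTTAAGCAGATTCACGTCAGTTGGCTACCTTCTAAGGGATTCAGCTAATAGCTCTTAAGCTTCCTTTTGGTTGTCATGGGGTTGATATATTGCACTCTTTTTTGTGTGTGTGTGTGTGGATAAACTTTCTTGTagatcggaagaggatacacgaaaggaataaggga

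The next sequence is the highest-scoring peak of 82-kDa ChAT in these genes after Aβ1–42, which lay in intron 4 of UNC13C (chr15:54162619-54162672). Capitals in it mark the A/T-C pattern, meaning 3 bases that are each A or T, then a C, then 3 bases that are each A or T, read on either strand. Among the SATB1 peaks in the 49 genes after Aβ1–42, the highest score belonged to a peak in intron 6 of RIMS2. Most SATB1 peaks after Aβ1–42 matched Alu, a short repeat of primate genomes with very many copies.
UNC13C 82-kDa ChAT Aβ1–42: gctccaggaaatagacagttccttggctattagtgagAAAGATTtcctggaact

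Synaptic genes as a whole held fewer peaks than their length would give if peaks fell evenly over the determined bases of each chromosome. For 82-kDa ChAT, 30 peaks touched the 49 genes after vehicle against 40.6 expected, a ratio of 0.74 (95% exact Poisson interval 0.50 to 1.05). After Aβ1–42 there were again 30 peaks, against 38.6 expected (ratio 0.78, interval 0.52 to 1.11). For SATB1 the genes held 12 peaks after vehicle (expected 16.5, ratio 0.73, interval 0.38 to 1.27) and 25 after Aβ1–42 (expected 33.9, ratio 0.74, interval 0.48 to 1.09). All 4 intervals, which cover counting error only, include 1. Over all protein-coding genes the ratios were 0.83, 0.95, 0.83 and 1.04 in the same order, and each of these values lay inside the interval of the synaptic genes. As a share of its list, 82-kDa ChAT had 0.40% of its peaks in the genes after vehicle (exact Clopper-Pearson interval 0.27 to 0.57) and 0.47% after Aβ1–42 (interval 0.32 to 0.67). The shares for SATB1 were 0.42% (interval 0.22 to 0.73) and 0.43% (interval 0.28 to 0.63). The rise from 12 to 25 SATB1 peaks therefore went with a longer list, and the share of the list in these genes differed by 0.011 percentage points.

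Of the 49 genes, 27 held at least 1 peak. With 82-kDa ChAT after vehicle, 15 genes had a peak, where 20.4 were expected from their lengths and 10.5% of all protein-coding genes had one. After Aβ1–42 the number was 18 (expected 19.9, background 11.1%). SATB1 had peaks in 10 genes after vehicle (expected 11.7, background 4.83%) and in 17 after Aβ1–42 (expected 18.9, background 12.0%). The shares of 30.6%, 36.7%, 20.4% and 34.7% thus lay above the background, while each count lay below the number that length alone gives.

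Genes with and without a peak differed in length. The 27 genes with a peak had a median length of 516601 nt and the 22 genes without one a median of 62436 nt. Among the 16 genes of at least 500000 nt, 15 held a peak, the exception being PPFIA2. The 323 protein-coding genes of this length gave a fairer background: 72.8% of them had a peak of 82-kDa ChAT after vehicle, 75.9% after Aβ1–42, 47.7% a peak of SATB1 after vehicle and 66.3% after Aβ1–42. In the 16 synaptic genes the corresponding shares were 62.5%, 81.3%, 56.3% and 62.5%. The ratios of found to expected peaks were 0.82, 0.79, 0.90 and 0.65 in the 16 genes, and 0.82, 0.88, 0.84 and 0.74 in the 323 genes. Every one of the latter values lay inside the counting interval of the former.

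**Figure D1:**
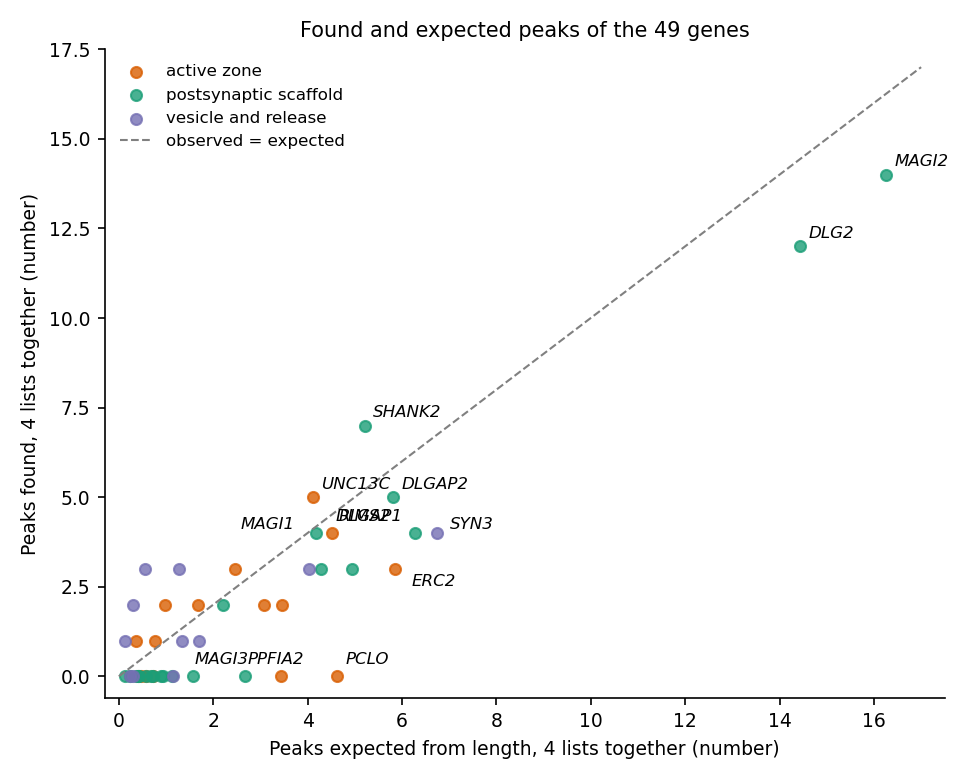
Peaks found (y axis, number over the 4 lists together) against peaks expected from gene length (x axis, number) for each of the 49 genes, coloured by role, with a dashed line where both are equal. MAGI2 with 14 peaks and DLG2 with 12 sit just under the line at the far right, most genes crowd near the origin, and PCLO and PPFIA2 lie on the x axis with no peak.

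On the postsynaptic side, 82-kDa ChAT had 22 peaks after vehicle and 12 after Aβ1–42, and on the presynaptic side 8 and 18. Against the expected numbers, the postsynaptic ratio was 0.94 after vehicle (interval 0.59 to 1.43) and 0.53 after Aβ1–42 (interval 0.28 to 0.93). The presynaptic ratio was 0.46 (interval 0.20 to 0.91) after vehicle and 1.11 (interval 0.66 to 1.76) after Aβ1–42. Within each side the intervals of both treatments overlap, and the presynaptic interval after vehicle includes the 0.83 of all protein-coding genes. The postsynaptic interval after Aβ1–42 does not reach the 0.95 of all protein-coding genes. It includes the 0.88 of the 323 protein-coding genes of at least 500000 nt. For the low value of each side, the interval reached 1 under some other choices but not under all. Without DLG2 the postsynaptic ratio after Aβ1–42 was 0.61 (interval 0.31 to 1.10), without SHANK2 0.53 (interval 0.26 to 0.95) and without MAGI2 0.40 (interval 0.16 to 0.82). At the rate of protein-coding gene bodies 14.4 presynaptic peaks were expected after vehicle, within the interval of the 8 found (3.45 to 15.8). At that rate 21.2 postsynaptic peaks were expected after Aβ1–42, just outside the interval of the 12 found (6.20 to 21.0). With only scores at or above the list median, the postsynaptic genes held 7 peaks after vehicle and 7 after Aβ1–42 (ratios 0.643 and 0.636), and the presynaptic genes 4 and 12. Within the presynaptic genes, the active zone held 4 peaks after vehicle (expected 11.4, ratio 0.35, interval 0.096 to 0.90) and 10 after Aβ1–42 (expected 11.3, ratio 0.88). Vesicle and release genes held 4 (expected 5.89, ratio 0.68) and 8 (expected 4.81, ratio 1.66). The active zone interval after vehicle also lay below 1, and it includes the 0.83 of all protein-coding genes. With MAGI2 and DLG2 left out, the 2 genes longer than 1 Mb, the postsynaptic counts were 11 and 6.

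For SATB1 both sides had more peaks after Aβ1–42, as the list did. The postsynaptic genes held 7 peaks after vehicle and 13 after Aβ1–42 (ratios 0.74 and 0.68), and the presynaptic genes 5 and 12 (ratios 0.70 and 0.82). In the active zone the ratios were 0.87 with 4 peaks and 0.69 with 7 peaks, and in the vesicle and release genes 0.40 with 1 peak and 1.10 with 5. All these intervals include 1.

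**Figure D2:**
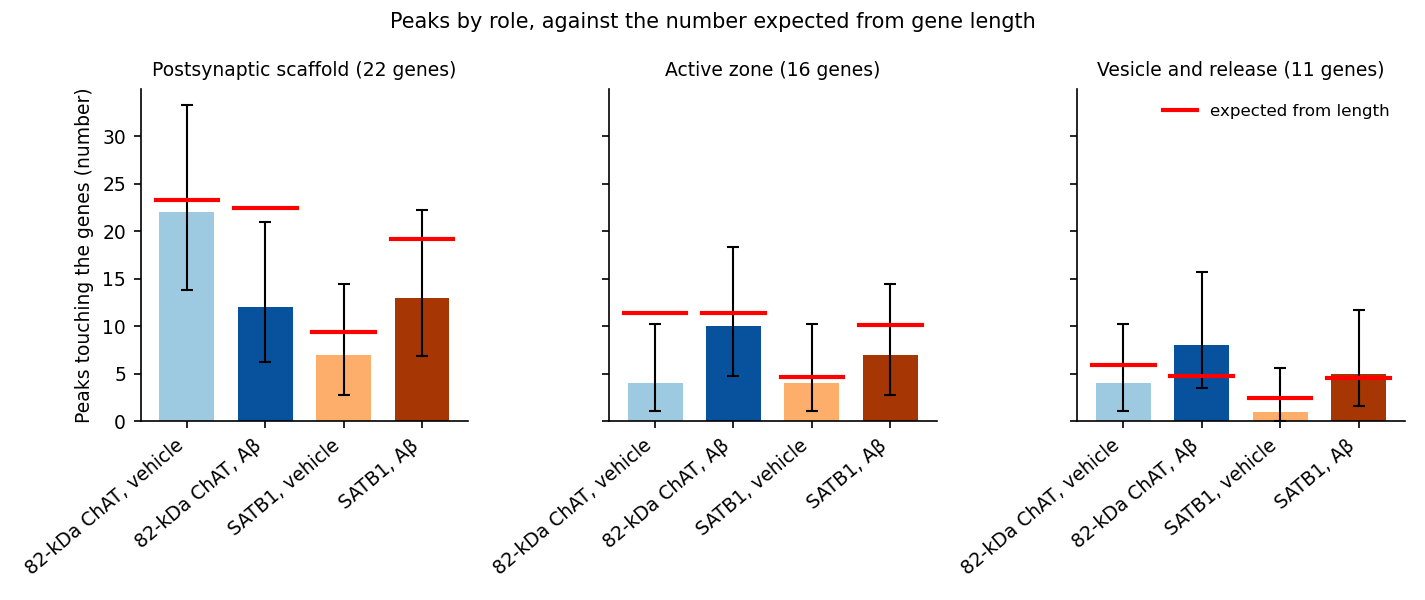
Peaks touching the genes of each role (bars, number, y axis) in the 4 peak lists (x axis), with 95% exact Poisson intervals for counting error (black) and the number expected from length (red lines). For 82-kDa ChAT the postsynaptic bar is lower after Aβ (12 against 22) and the active zone and vesicle bars are higher (10 against 4 and 8 against 4), and each bar rests on 1 library.

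The same split was taken in 52 other synapse genes from a second list of textbook roles, 23 postsynaptic (CTNND2, KALRN, TANC2 and others) and 29 presynaptic (CADPS, RAB3B, SYT2 and others). There 82-kDa ChAT went the other way. The other postsynaptic genes held 8 peaks after vehicle and 18 after Aβ1–42 (ratios 0.62 and 1.46), and the other presynaptic genes 11 and 5 (ratios 1.11 and 0.52). Together the 52 genes had ratios of 0.83 and 1.05 for 82-kDa ChAT and of 0.55 and 0.56 for SATB1, with 19, 23, 5 and 12 peaks. The side of the synapse thus did not give one direction across both lists of genes.

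By gene, 82-kDa ChAT had more peaks after Aβ1–42 than after vehicle in 11 of the 49 genes and fewer in 9, with 4 equal and 25 at 0 in both. Among all protein-coding genes 8.58% had more and 8.06% fewer. Of the 323 protein-coding genes of at least 500000 nt, 125 had more and 114 fewer. Of the 27 presynaptic genes 9 had more and 4 fewer, and of the 22 postsynaptic genes 2 had more and 5 fewer. SATB1 had more peaks after Aβ1–42 in 12 genes and fewer in 4, against 10.8% and 3.40% of all protein-coding genes. These backgrounds are not matched for length, and of the 323 long protein-coding genes 142 had more and 55 fewer. Peaks of both proteins touched 7 genes after vehicle (background 2.39%) and 11 after Aβ1–42 (background 3.30%). Among the 323 long genes they touched 121 and 169. DLG2, MAGI2, SHANK2 and SYN3 had peaks in all 4 lists, which 0.564% of protein-coding genes had. All 4 are among the 16 genes of at least 500000 nt, and 73 of the 323 protein-coding genes of that length had peaks in all 4 lists. No peak in any list was found for 22 of the 49 genes, against 73.1% of all protein-coding genes. Of the 16 long genes among the 49, 15 held a peak, and 10 of the 323 long protein-coding genes had none. Only those 16 reach 500000 nt, so the counts of the 323 are no matched background for all 49.

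**Figure D3:**
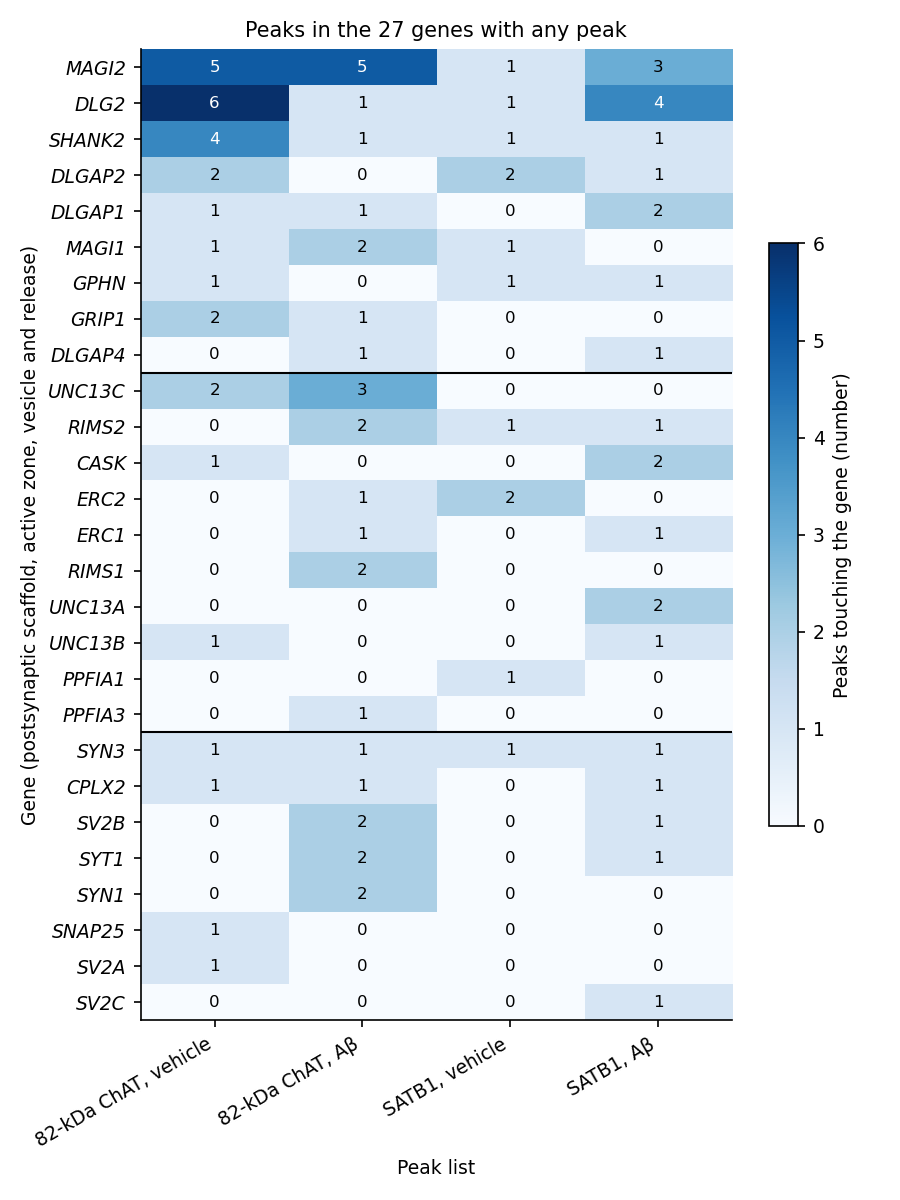
Number of peaks (digits and shade) in each of the 27 genes with any peak (rows, ordered by role and then by total) and each peak list (columns). DLG2 has 6 82-kDa ChAT peaks after vehicle and 1 after Aβ, whereas RIMS1, RIMS2, SV2B, SYT1 and SYN1 have 0 and 2.

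Among the DLG family, the membrane-associated guanylate kinases that bind receptors directly, all 12 peaks lay in DLG2 (chr11:83455012-85628335), which encodes PSD-93 and is the longest of the 49 genes. For 82-kDa ChAT it held 6 peaks after vehicle and 1 after Aβ1–42, with 4.59 and 4.49 expected from its length. For SATB1 it held 1 and 4, with 1.60 and 3.76 expected. Thus 82-kDa ChAT was above its expected number after vehicle and below it after Aβ1–42, while the SATB1 counts lay close to theirs. The counting intervals of 6, 4 and 1 peaks run from 2.20 to 13.1, from 1.09 to 10.2 and from 0.025 to 5.57. Each includes the expected number. Intron 6 held 8 of the 12 peaks. After vehicle the nearest peaks of 82-kDa ChAT and SATB1 in this intron lay 2238 nt apart. After Aβ1–42 the peaks of 82-kDa ChAT (chr11:85075644-85075774) and SATB1 (chr11:85076948-85077005, score 91.02) in this intron lay 1174 nt apart, with GC contents of 22.9% and 25.9%. The other 3 SATB1 peaks after Aβ1–42 matched Alu and had GC contents from 50.4% to 58.0%. One 82-kDa ChAT peak after vehicle (chr11:83459098-83459182, score 59.22) lay in the untranslated part of the last of 28 exons, at 99.8% of the gene length. The genes DLG1, DLG3, DLG4 (PSD-95) and DLG5 had no peak, with 1.57, 0.37, 0.42 and 1.12 expected over the 4 lists together. A peak of 82-kDa ChAT after vehicle lay within 2000 nt upstream of DLG1, outside the gene (chr3:197300810-197300934, score 52.4).

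DLGAP proteins link the DLG layer to the SHANK layer. DLGAP2 held 2 peaks of 82-kDa ChAT in vehicle-treated cells and 0 after Aβ1–42, and for SATB1 2 and 1, all of them in intron 2. The 82-kDa ChAT and SATB1 peaks nearest to each other after vehicle were 3174 nt apart. DLGAP1 (chr18:3496032-4455307) held 1 and 1 for 82-kDa ChAT and 0 and 2 for SATB1. The 2 SATB1 peaks, in introns 1 and 3, both matched Alu. DLGAP4 had 1 peak of each protein, both after Aβ1–42 and 82071 nt apart, and DLGAP3 had none with 0.58 expected. The family as a whole had 11 peaks against 14.9 expected.

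SHANK proteins form the deepest layer and reach the actin skeleton through partners. SHANK2 (chr11:70467854-71252577) held all 7 peaks of the family, against 5.22 expected in that gene. It had 4 82-kDa ChAT peaks after vehicle and 1 after Aβ1–42, with 1.66 and 1.62 expected. SATB1 had 1 peak after each treatment. In intron 11 the peak with a score of 150.88 for 82-kDa ChAT overlapped that of SATB1 (score 73.66) over 166 nt, the whole length of the SATB1 peak, and the sequence printed above has a GC content of 57.3% and no A/T-C pattern. The SATB1 peak after Aβ1–42 (intron 17, score 68.3) matched Alu and lay 271489 nt from the 82-kDa ChAT peak of that treatment. SHANK1 and SHANK3 had no peak with 0.68 and 0.72 expected, and neither had any of HOMER1, HOMER2 and HOMER3, which bind SHANK and metabotropic receptors, with 1.97 expected together.

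MAGI proteins are scaffolds with inverted domain order that bind receptors and adhesion proteins. In MAGI2 (chr7:78017055-79453667) the counts were 5 and 5 for 82-kDa ChAT and 1 and 3 for SATB1, close to the 5.21, 4.75, 1.95 and 4.34 expected. The peaks that overlapped in intron 9 after Aβ1–42 shared 51 nt, the whole 82-kDa ChAT peak, with scores of 83.06 and 90.44. MAGI1 (chr3:65353525-66038918) had 1 and 2 for 82-kDa ChAT and 1 and 0 for SATB1. Its SATB1 peak after vehicle (chr3:65480503-65480625, score 63.67) lay in intron 3 of the main transcript and within 2000 nt upstream of the start of another transcript. No peak touched MAGI3, with 2.67 expected.

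GRIP1, which carries AMPA receptors, had 2 82-kDa ChAT peaks after vehicle and 1 after Aβ1–42 and none for SATB1. One of the vehicle peaks scored 112.9 and lay before the start of the main transcript, inside a longer one. GRIP2 and PICK1 had none, with 0.41 and 0.24 expected, although a peak of 82-kDa ChAT after Aβ1–42 that matched Alu lay upstream of PICK1 (chr22:38055918-38056058, score 58.56). GPHN, which encodes gephyrin, the scaffold of inhibitory synapses, had 1 peak of each protein after vehicle and 1 SATB1 peak after Aβ1–42. Both vehicle peaks were the overlapping pair in intron 1, which shared 134 nt with scores of 56.26 and 50.44.

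RIM proteins bind Rab3 on vesicles and recruit calcium channels. RIMS1 and RIMS2 each had 2 peaks for 82-kDa ChAT after Aβ1–42 and 0 after vehicle, with 0.91 and 1.40 expected after Aβ1–42 and 0.89 and 1.45 after vehicle. The RIMS1 peaks lay in introns 2 and 4 with scores of 79.96 and 87.84 and GC contents close to 26%. RIMS2 also had 1 SATB1 peak after each treatment. The one after vehicle lay in intron 8 and within 2000 nt upstream of another transcript start, and the one after Aβ1–42, in intron 6, scored 99.91 and did not match Alu. RIMS3 and RIMS4 had no peak, with 0.41 and 0.58 expected.

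Munc13 proteins prime vesicles for fusion. UNC13C (chr15:53978201-54628707) had 2 82-kDa ChAT peaks after vehicle and 3 after Aβ1–42 with 1.31 and 1.21 expected, and none for SATB1. The peak printed above scored 118.57. UNC13A had 2 SATB1 peaks after Aβ1–42 and UNC13B 1, and all 3 matched Alu. UNC13B also had 1 peak for 82-kDa ChAT after vehicle. The family had 9 peaks against 6.77 expected.

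Of the other active zone genes, ERC2 (chr3:55508311-56469095), which encodes an ELKS protein that binds RIM and Bassoon, had 2 SATB1 peaks after vehicle (scores 93.8 and 67.66) and 0 after Aβ1–42. For 82-kDa ChAT it had 0 and 1. ERC1 had 1 peak of each protein after Aβ1–42, 245882 nt apart, and both matched Alu. CASK, a kinase-like scaffold that binds neurexin, had 1 peak for 82-kDa ChAT after vehicle and 2 for SATB1 after Aβ1–42. Both SATB1 peaks matched Alu, and one of them also touched the coding gene GPR82 inside a CASK intron. Among the liprin-α genes, PPFIA1 had 1 SATB1 peak after vehicle and PPFIA3 1 peak for 82-kDa ChAT after Aβ1–42, while PPFIA2 and PPFIA4 had none with 3.43 and 0.47 expected. The genes of the large active zone proteins Piccolo (PCLO) and Bassoon (BSN) had no peak in any list, with 4.63 and 0.71 expected. The exact Poisson interval of 0 peaks reaches 3.69, and with the peak rate of the whole genome in place of that of the chromosome 3.14 were expected in PCLO and 3.85 in PPFIA2.

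In the vesicle and release genes, the 8 peaks of 82-kDa ChAT after Aβ1–42 (ratio 1.66, interval 0.72 to 3.27) lay in 5 of 11 genes, where 3.22 genes were expected from length and the background was 11.1%. Synapsins coat vesicles and hold them in reserve. SYN1 (chrX:47571901-47619857) had 2 peaks for 82-kDa ChAT after Aβ1–42, 350 nt apart in intron 1, with 0.088 expected. The one at chrX:47609006-47609100 (score 66.26) lay within 2000 nt upstream of another transcript start, and both touched a long noncoding RNA gene as well. SYN3 had 1 peak in each list, all 4 in intron 6 and none overlapping, with the nearest 82-kDa ChAT and SATB1 peaks 47108 nt apart after vehicle and 90488 nt after Aβ1–42. SYN2 had none with 1.14 expected.

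SYT1 encodes the calcium sensor of fast release. It had 0 82-kDa ChAT peaks after vehicle and 2 after Aβ1–42 (1.23 and 1.30 expected), and for SATB1 0 and 1. The 82-kDa ChAT peak at chr12:78878019-78878173 (score 78.1) shared 136 nt with the SATB1 peak (score 66.24), 14.1 kb from the gene start, and neither matched Alu. This SATB1 peak holds the 12 letters with which the sequencing adapter of these libraries begins, and the 82-kDa ChAT peak ends where they begin. Their part in the pair was not tested. CPLX2, which encodes a complexin that clamps and then assists fusion, had 1 peak for 82-kDa ChAT after each treatment and 1 for SATB1 after Aβ1–42, against 0.55 expected over the 4 lists. All 3 lay before the start of the main transcript, inside longer ones, and the peaks of both proteins after Aβ1–42 were 24881 nt apart. CPLX1 had no peak, with 0.29 expected.

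SV2 proteins are glycoproteins of the vesicle membrane. SV2B (chr15:91099950-91302565) had 2 peaks for 82-kDa ChAT and 1 for SATB1, all after Aβ1–42, with 0.38 and 0.36 expected. The 82-kDa ChAT peak at chr15:91294742-91294814 (score 66.95) and the SATB1 peak at chr15:91299730-91299868 (score 60.87, matching Alu) both lay in the untranslated part of exon 13, the last exon, 4916 nt apart. SV2A had 1 peak for 82-kDa ChAT after vehicle and SV2C 1 Alu-matching SATB1 peak after Aβ1–42. Of the SNARE genes, SNAP25 had 1 peak for 82-kDa ChAT after vehicle in intron 1 and STX1A had none, with 1.35 and 0.23 expected.

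**Figure D4:**
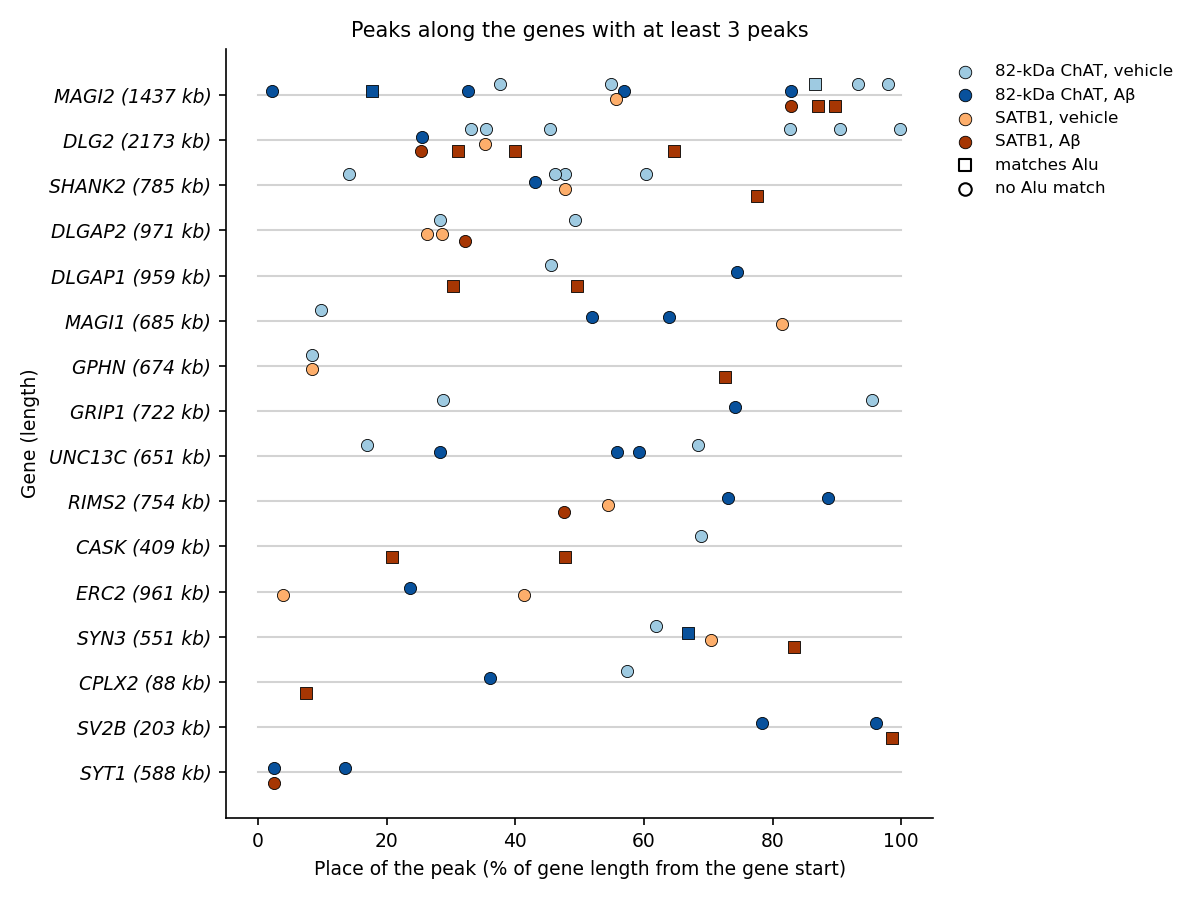
Place of each peak (x axis, percent of gene length from the gene start) in the 16 genes with at least 3 peaks (y axis, with length), coloured by list, squares for peaks that match Alu. Peaks are spread along the genes, most dark orange points (SATB1 after Aβ) are squares, and light and dark points of one protein do not coincide.

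Peaks in these genes were almost all intronic. Of the 97 peaks, 90 lay in an intron of the main (MANE Select) transcript, 4 before its start inside longer transcripts of CPLX2 and GRIP1, and 3 in an exon. The share of these gene bodies that is intron was not measured, so the intronic share has no background here. Within 2000 nt upstream of a transcript start lay 3 of the 97. Peaks had to touch the gene body, so the peaks upstream of DLG1 and PICK1 are not among them. The places ranged from 2.22% to 99.8% of the gene length with a median of 47.7%, and 53 of the 97 peaks lay nearer to the start than to the end of their gene. The median distance from the gene start was 358 kb.

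No peak of a protein after vehicle overlapped a peak of the same protein after Aβ1–42 in the 49 genes. This was 0 of 30 for 82-kDa ChAT (exact interval 0 to 11.6%) and 0 of 12 for SATB1 (interval 0 to 26.5%). Across all protein-coding genes 2.89% of the 2729 vehicle peaks of 82-kDa ChAT and 0.77% of the 1039 of SATB1 did so, values inside these intervals. For 82-kDa ChAT the closest approach was 9031 nt, from the SV2A peak after vehicle to a peak after Aβ1–42 that lay outside SV2A. With both peaks in the same gene it was 18623 nt, in CPLX2. For SATB1 it was 34777 nt, in DLGAP2. A gene with the same count after both treatments, such as MAGI2 with 5 and 5, therefore did not hold the same peaks.

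All 4 overlapping pairs joined 82-kDa ChAT and SATB1 lists of the same treatment, which share their input library. After vehicle the 2 pairs were 6.67% of the 30 peaks of 82-kDa ChAT and 16.7% of the 12 of SATB1, and after Aβ1–42 they were 6.67% of 30 and 8.00% of 25. In all protein-coding genes 9.31% of the 82-kDa ChAT peaks overlapped a SATB1 peak after vehicle and 2.90% after Aβ1–42. Both values lie inside the exact interval of 2 of 30 peaks (0.82 to 22.1%). The shares of SATB1 peaks have no such background here. Neither protein overlapped the other across treatments in these genes. None of the 8 peaks of the pairs matched Alu.

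**Figure D5:**
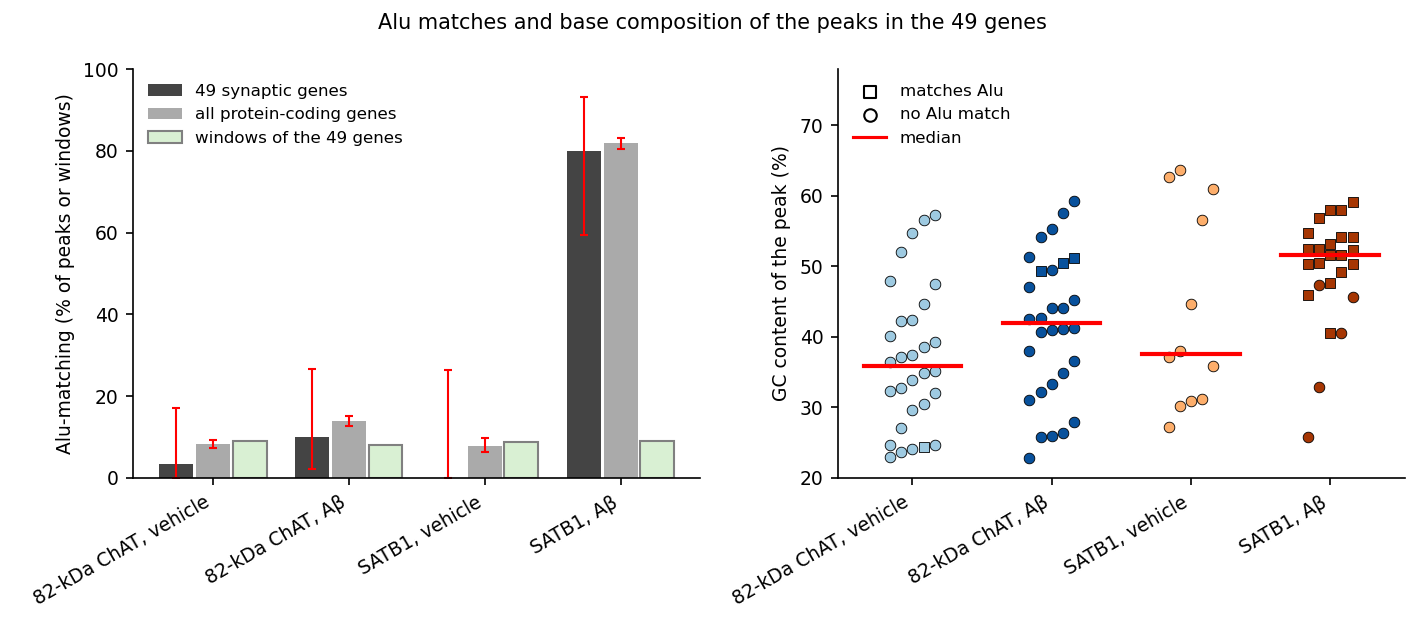
Left, share of Alu-matching peaks (y axis, %) in the 49 genes and in all protein-coding genes with 95% Clopper-Pearson intervals (red), and share of Alu-matching windows of the 49 genes, for each list. Right, GC content (y axis, %) of every peak in the 49 genes by list, squares for Alu matches, red lines for medians. The SATB1 list after Aβ stands apart with 80.0% Alu-matching peaks and a median GC content of 51.6%.

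The SATB1 peaks after Aβ1–42 differed from those of the other lists in sequence. Of the 25 peaks, 20 matched Alu (80.0%, interval 59.3 to 93.2), against 0 of 12 for SATB1 after vehicle, 1 of 30 for 82-kDa ChAT after vehicle and 3 of 30 after Aβ1–42. Windows of the same genes, cut to the median peak length of that list and free of its peaks, matched in 8.92% of cases. The share was not particular to synaptic genes, since 81.8% of the SATB1 peaks after Aβ1–42 in all protein-coding genes matched too. The matching peaks were spread over 14 genes, and the 5 others lay in DLG2, DLGAP2, MAGI2, RIMS2 and SYT1. For 12 of the 17 genes with a SATB1 peak after Aβ1–42 every such peak matched Alu. Without Alu-matching peaks, SATB1 had more peaks after Aβ1–42 in 1 gene (SYT1) and fewer in 7 (DLGAP2, ERC2, GPHN, MAGI1, PPFIA1, SHANK2 and SYN3). The backgrounds, not matched for gene length, were 1.97% and 4.02%. These directions are raw counts, not scaled to the lists. In the whole lists Alu matched 171 of 2884 SATB1 peaks after vehicle and 4405 of 5857 after Aβ1–42. Leaving such peaks out thus shortened the list after Aβ1–42 far more. The synaptic genes then held 12 peaks after vehicle and 5 after Aβ1–42, against 15.5 and 7.80 expected. After Aβ1–42 peaks remained in 5 genes, where 6.5 were expected and 2.46% of protein-coding genes had one. The Alu copy used as reference holds a SATB1 peak of the same Aβ1–42 list, in the APP gene. Against the annotated RN7SL1 transcript instead, 18 of the 25 SATB1 peaks after Aβ1–42 matched (72.0%, interval 50.6 to 87.9). Reads from near-identical copies can be placed wrongly, and the part of mapping in the Alu-matching peaks was not tested.

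Base composition went with the repeat. The median GC content was 51.6% for SATB1 after Aβ1–42 and 35.8%, 42.0% and 37.6% for 82-kDa ChAT after vehicle, 82-kDa ChAT after Aβ1–42 and SATB1 after vehicle. Windows of the genes had medians of 38.5% to 39.2%. In the 22 postsynaptic peaks of 82-kDa ChAT after vehicle the median was 34.4%, and MAGI2, DLG2 and MAGI1 held peaks under 30%. The A/T-C pattern was in 70.0%, 73.3%, 58.3% and 68.0% of the peaks of the 4 lists, and in 79.5%, 74.2%, 78.7% and 79.3% of windows. TCCAT or TCCCAT on either strand was in 33.3%, 16.7%, 16.7% and 8.00% of the peaks, and in 34.2%, 28.9%, 33.2% and 34% of windows. Except for TCCAT in SATB1 after Aβ1–42 (interval 0.98 to 26), the intervals of the peaks include the value of the windows. In all protein-coding genes TCCAT was in 16.6% of the peaks of that list. No peak in the 49 genes was rich in the pentamer CATTC (at least 3 per 100 nt).

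Scores in the genes did not stand out from those of their lists. Medians were 63.5, 66.3, 67.3 and 68.1 in the genes and 66.6, 63.6, 65.8 and 66.4 in the whole lists. Peak lengths had medians of 115, 110.5, 131 and 137 nt in the genes.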

How the data were processed

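ChIP-seq libraries of 82-kDa ChAT and SATB1 from SH-SY5Y cells treated with vehicle or Aβ1–42 were analysed as peak lists, 1 for each library, with 95% intervals throughout. The authors mapped reads to hg38 with the Burrows-Wheeler Aligner (BWA) with repeat-masking, called peaks with MACS and dropped those that the input of that treatment shared. The deposited score of a peak is 10 times the negative log10 of its MACS p-value, and the lowest was 50.01. Reads and input libraries were not analysed here, and the peak lists do not hold the read number of each library.

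GENCODE 44 gene bodies on chromosomes 1 to 22, X and Y were intersected with the peaks. Positions are counted from 1. For each list, the number expected in a gene was the number of peaks on its chromosome times the share of determined bases at which a peak would touch it. Expected genes with a peak were the sum of 1 minus the exponential of the negative expected number. Counts have exact Poisson and shares exact Clopper-Pearson intervals, which cover counting error only. Alu matches came from blastn 2.17.0 (e-value 1e-05) against a 287 nt Alu copy of the reference genome. The work used matplotlib 3.10.9, pysam 0.24.0, pandas 2.3.3, numpy 2.4.6 and scipy 1.17.1 in Python 3.11.15. Counting and expected numbers were tested on simulated data, and 4 of 4 checks are recorded as passed. The check of the Poisson interval used no simulated peaks and could not fail, so it adds no support.

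The 49 genes, the 52 other synapse genes and the comparisons were chosen with earlier results of these data known. Every gene was given by its counts. Positions or scores were given for the genes among the 10 with most peaks (ties included), with peaks in at least 3 lists, with a peak in an exon or promoter, or with a peak overlapping another list. Those of RIMS1, DLG1 and PICK1 fall outside this rule and were chosen after their values were seen. Alternatives covered the score threshold, the expected rate, gene bounds, repeats, nearby peaks, long genes, promoter length and overlap. Sequences of some peaks are not reported here.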

Additional observations from a re-analysis of the deposited data

Results flagged for a closer look

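With 1 library for each protein and treatment, no spread between replicates was available, and results were marked where both proteins moved in opposite directions between vehicle and Aβ1–42. None of these differences was tested. In the active zone genes, the ratio of found to expected peaks was 0.53 higher after Aβ1–42 for 82-kDa ChAT and changed by -0.18 for SATB1, in both cases from counts of 10 or fewer. The differences in single genes are raw counts, not scaled to the lists, and the SATB1 list held 2884 peaks after vehicle and 5857 after Aβ1–42. In DLG2 the number of peaks changed by -5 for 82-kDa ChAT and by 3 for SATB1, and 3 of the 4 SATB1 peaks after Aβ1–42 matched Alu. The numbers expected in DLG2 after vehicle and Aβ1–42 were 4.59 and 4.49 for 82-kDa ChAT and 1.60 and 3.76 for SATB1. CASK changed by -1 and 2 and UNC13B by -1 and 1 for 82-kDa ChAT and SATB1, with all SATB1 peaks matching Alu. ERC2 changed by 1 and -2 and MAGI1 by 1 and -1. Of the 5 genes named here, all but DLG2 differed by 1 or 2 peaks.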

How the results depend on the processing

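Of 258 values recomputed under alternatives for 35 results, 247 stayed within their counting interval or, for counts, within 1.5 times, and 11 moved. Some of these values could not move. Leaving out the genes longer than 1 Mb removed no presynaptic gene, and another expected rate cannot change a count of genes with a peak. Counting intervals of small counts are also wide, so the tally is no measure of how firm the results are. Keeping only scores at or above the list median left 8, 6 and 11 genes with a peak for 82-kDa ChAT after vehicle, SATB1 after vehicle and SATB1 after Aβ1–42, and made the list share of 82-kDa ChAT 0.304 percentage points higher after Aβ1–42 than after vehicle, against 0.071 with all peaks. Without Alu-matching peaks 5 genes had a SATB1 peak after Aβ1–42, and the difference of the SATB1 share changed sign from 0.011 to -0.098. It was -0.0098 with the score threshold. With the RN7SL1 transcript as reference 0 peaks of 82-kDa ChAT after vehicle matched in place of 1. With promoters of 1000 nt, 0 peaks of 82-kDa ChAT after Aβ1–42 and 0 of SATB1 after vehicle lay in promoters. With 5000 nt, 82-kDa ChAT had 2 after vehicle and 4 after Aβ1–42, and SATB1 had 1 after Aβ1–42. Over the alternatives the ratio of all 49 genes ranged from 0.58 to 0.89 and from 0.76 to 1.0 for 82-kDa ChAT after vehicle and Aβ1–42, and from 0.69 to 0.87 and from 0.64 to 0.81 for SATB1. The postsynaptic ratio of 82-kDa ChAT ranged from 0.64 to 1.13 after vehicle and from 0.45 to 0.64 after Aβ1–42, and with only scores at or above the list median the counts were equal (7 and 7). The presynaptic ratio ranged from 0.41 to 0.56 and from 1.07 to 1.5. Chosen after the data had been seen, leaving out DLG2 gave postsynaptic counts of 16 and 11, leaving out SHANK2 18 and 11, and leaving out MAGI2 17 and 7. SHANK3 has no MANE Select transcript in the annotation and kept its gene body where those bounds were used. No paired analysis was possible because each protein and treatment has 1 library. Counts in single genes are small, and 1 peak has a counting interval from 0.025 to 5.57. How read depth bears on the counts was not tested.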

Other observations

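Inside the joined interval of the overlapping pair in SYT1, the 12 bases that directly follow the shared part have the letters with which the Illumina TruSeq adapter begins. This is the adapter used for these libraries. These 12 letters occur at 62 places on chromosomes 1 to 22, X and Y, counting both strands. They lie inside 1 SATB1 peak after Aβ1–42, the one in SYT1, inside 1 peak of 82-kDa ChAT after Aβ1–42 and inside 0 peaks of the vehicle lists. Counting peaks that hold the letters or lie within 100 nt of them, there were 2 and 3 for 82-kDa ChAT after vehicle and Aβ1–42, and 0 and 2 for SATB1. The 82-kDa ChAT peak in SYT1 ends where the letters begin. Their part in these peaks was not tested.

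Of the 52 other synapse genes, TANC2, a scaffold that binds PSD-95, had the most peaks, with 2 and 4 for 82-kDa ChAT and 2 and 1 for SATB1. KALRN, an exchange factor that shapes dendritic spines, had 1 and 2 and 1 and 3. These are the only genes of that list with a peak in all 4 lists. In CADPS, which encodes a priming factor for dense-core vesicles, 82-kDa ChAT had 3 peaks after vehicle and 0 after Aβ1–42.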
